A study of Mus musculus with 16 samples.

Results

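The genes described here are 10 lipases and lipase regulators of mouse liver. They are the cytosolic and lipid droplet enzymes Pnpla2, Pnpla3, Lipe and Mgll, the lysosomal enzyme Lipa, the secreted enzymes Lpl, Lipg and Lipc, and the regulators Abhd5 and G0s2. They were taken by name, as every probe set annotated to one of these genes alone, with no filter on the measured values. The genes themselves were chosen with earlier results of these data known. Probe sets were listed for 9 of the 10 genes, 21 of the 45037 probe sets and 9 of the 18193 genes on the array. Lipc had no probe set listed in the annotation used and was not analysed here. Liver RNA of 16 male mice aged 12 to 20 weeks was hybridized to 1 Affymetrix mouse genome oligonucleotide array per mouse. There were 4 groups of 4 mice, PPARα-null mice fed Wy14643, wild-type mice fed Wy14643, PPARα-null mice on control food and wild-type mice on control food. Wy14643, a synthetic PPARα agonist, was mixed into the food at 0.1% by weight for 5 days. The PPARα-null mice were of the 129S4/SvJae strain and the wild-type mice of the 129S1/SvImJ strain, so that the null allele and the substrain cannot be told apart.

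Fat is stored in cells as triglyceride in lipid droplets. In adipose tissue it is cleaved stepwise, with adipose triglyceride lipase (Pnpla2) taking off the first fatty acid, hormone-sensitive lipase (Lipe) acting on diglyceride and monoglyceride lipase (Mgll) on the last ester. Abhd5 is the coactivator of Pnpla2 and G0s2 is its inhibitor. Lysosomal acid lipase (Lipa) hydrolyses triglyceride and cholesteryl ester that arrive in lysosomes. Lipoprotein lipase (Lpl), endothelial lipase (Lipg) and hepatic lipase (Lipc) belong to a separate family that is secreted and acts on lipoproteins at the vessel wall. PPARα is a fatty acid-activated nuclear receptor that binds as a heterodimer with RXR to direct repeats of a hexamer, and in liver it is known for the control of fatty acid oxidation.

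The sequence just upstream of the start site was looked at for all 10 genes. Of the 9 measured genes, 7 rose together in wild-type liver on Wy14643. RefSeq windows of the 250 bases before the start (GRCm38.p6) were matched for 8 of the 10 genes, in 11 windows, since some genes have more than 1 start. Lpl and Lipg had no window, whereas Lipc, which was not measured, and Pnpla3, which was not called, did. The counts over the windows are thus not counts over the genes that rose. The windows of Pnpla2 (chr7:141454938-141455187, plus strand), Mgll (chr6:88724162-88724411, plus strand), Abhd5 (chr9:122351366-122351615, plus strand) and G0s2 (chr1:193273189-193273438, minus strand) are shown, a pair of enzymes and the activator and inhibitor of the first. They run 5′ to 3′ up to the base before the start, and capitals mark matches to the GC box GGGCGG or to the hexamer AGGTCA on either strand.
Pnpla2: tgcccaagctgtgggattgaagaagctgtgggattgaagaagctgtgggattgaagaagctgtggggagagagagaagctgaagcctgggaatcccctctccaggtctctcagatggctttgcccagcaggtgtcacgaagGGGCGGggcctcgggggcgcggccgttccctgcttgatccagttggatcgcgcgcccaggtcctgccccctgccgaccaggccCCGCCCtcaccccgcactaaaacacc
Mgll: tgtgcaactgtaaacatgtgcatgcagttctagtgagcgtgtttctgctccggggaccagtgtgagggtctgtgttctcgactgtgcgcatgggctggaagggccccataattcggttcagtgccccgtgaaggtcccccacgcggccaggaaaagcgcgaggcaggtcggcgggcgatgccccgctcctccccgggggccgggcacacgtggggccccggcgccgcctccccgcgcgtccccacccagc
Abhd5: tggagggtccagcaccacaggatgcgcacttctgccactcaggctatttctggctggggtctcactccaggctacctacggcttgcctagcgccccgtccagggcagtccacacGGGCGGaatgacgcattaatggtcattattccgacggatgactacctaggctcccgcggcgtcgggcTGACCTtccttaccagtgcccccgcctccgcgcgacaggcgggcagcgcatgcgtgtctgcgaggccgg
G0s2: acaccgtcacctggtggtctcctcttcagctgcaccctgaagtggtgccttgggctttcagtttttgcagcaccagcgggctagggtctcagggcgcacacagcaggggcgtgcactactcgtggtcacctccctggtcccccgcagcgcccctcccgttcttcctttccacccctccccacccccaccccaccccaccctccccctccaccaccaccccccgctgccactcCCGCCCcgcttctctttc

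The direct repeat AGGTCANAGGTCA, the hexamer with 1 base between the copies, was in 0 of the 11 windows and in 0.0335% of the 32851 windows of the genome table. The hexamer AGGTCA alone, which each such repeat also contains, was in the Abhd5 window, on the opposite strand and 69 bases before the start, and in 1 window of Lipc. It was in 14% of all windows. The GC box GGGCGG was in 7 of the 11 windows, among them those of Pnpla2, Abhd5 and G0s2 shown above, and in 32.7% of all windows. The Mgll window shown held no match to any of the motifs searched, which were these 3, TATAAA and CCAAT on both strands. The windows shown were rich in G and C, at 63.2% for Pnpla2, 68.0% for Mgll, 64.8% for Abhd5 and 67.2% for G0s2. The median over all windows was 52.4%. The other windows of these genes ran from 48.4% and 50.8% for Lipc, below that median, to 74.8% for the second Mgll window. A match is a description of the letters in this window only. The paper searched a wider stretch around each start with a predictor of binding strength. It located putative PPAR response elements for Pnpla2, Lipe, Mgll and Lipg. The paper described those of Lipg as weak and for the greater part not conserved.

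Levels are log2 of the deposited intensity. The highest of the 16 array medians, 2.24, is taken as the level of a dim probe set, and 6 of the 21 probe sets had all 4 group means at or below it. Each gene is given by its brightest probe set, and a difference is called where limma gave an adjusted p under 0.01, taken over all 45037 probe sets, together with a fold above 1.5. Errors of levels are SD over 4 arrays and errors of differences are the SE of the fit. The median log2 level was 2.15 to 2.24 per array. The array of PPARα-null mouse 4 on Wy14643 stood apart from its group, with 296 of 12877 probe sets more than 1 log2 unit below the other 3 mice, against 4 to 38 for each of the other arrays. In the array of wild-type mouse 3 on Wy14643, 6 genes of pancreatic acinar cells had levels of 7.56 to 8.67, against 1.16 to 3.2 in the other 15 arrays. The seventh measured gene of that list, Cela1, was bright in every group and went the other way, with group means of 7.16 in wild-type mice on Wy14643 and 9.33 in wild-type controls (-2.17, adjusted p = 2.94e-05). Without the PPARα-null array that stood apart the counts of genes called were 8 of 9 in the wild-type response, 0 in the PPARα-null response, 6 between the genotypes on Wy14643, 0 on control food and 6 for the difference of the responses. Without the wild-type array with acinar transcripts they were 7, 0, 5, 0 and 6.

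The targeted gene Ppara gave 9.35, 9.47, 9.68 and 10.04 in PPARα-null mice on Wy14643, 10.80, 10.81, 10.82 and 10.70 in wild-type mice on Wy14643, 9.15, 8.82, 9.48 and 9.71 in PPARα-null mice on control food and 9.77, 9.89, 10.07 and 9.96 in wild-type mice on control food. It was lower without overlap in PPARα-null mice on either food (-1.15 ± 0.17 on Wy14643, -0.63 ± 0.17 on control food, the second not called), with signal remaining. Its other 2 probe sets were called lower in PPARα-null mice on either food, with differences of -1.38 to -2.2. Whether the probes lie in the deleted stretch was not worked out, so that this is a weak check of the labels.

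In wild-type liver, Wy14643 raised 7 of the 9 measured genes and lowered 0. The 7 were Lpl, Pnpla2, Mgll, Lipe, G0s2, Abhd5 and Lipa, and the 2 that were not called were Lipg and Pnpla3. The same 7 genes had no overlap between the 4 Wy14643 arrays and the 4 control arrays. Over all probe sets 10.7% were called, 5.84% higher and 4.82% lower, and 10.9% were higher with no overlap. The median difference was 2.18 log2 units over the 9 genes and -0.03 over all probe sets. In PPARα-null liver Wy14643 changed 0 of the 9 genes by this test, 4 of them having an unadjusted p under 0.05, and 0.0133% of all probe sets were called. The share of all probe sets at an unadjusted p under 0.05 was not counted, in this or any later comparison. The study itself had picked Pnpla2, Lipe, Mgll and Lipg with the help of these arrays and named G0s2 in its text. The members here were chosen with earlier results of these data known, so that neither direction nor count is independent evidence for any of them. The paper described G0s2 as regulated specifically after a single dose of Wy14643, and Lipg as more significantly regulated then than after 5 days. Here G0s2 was called lower in PPARα-null than in wild-type liver after 5 days of Wy14643, a call lost without several single arrays.

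**Figure D1:**
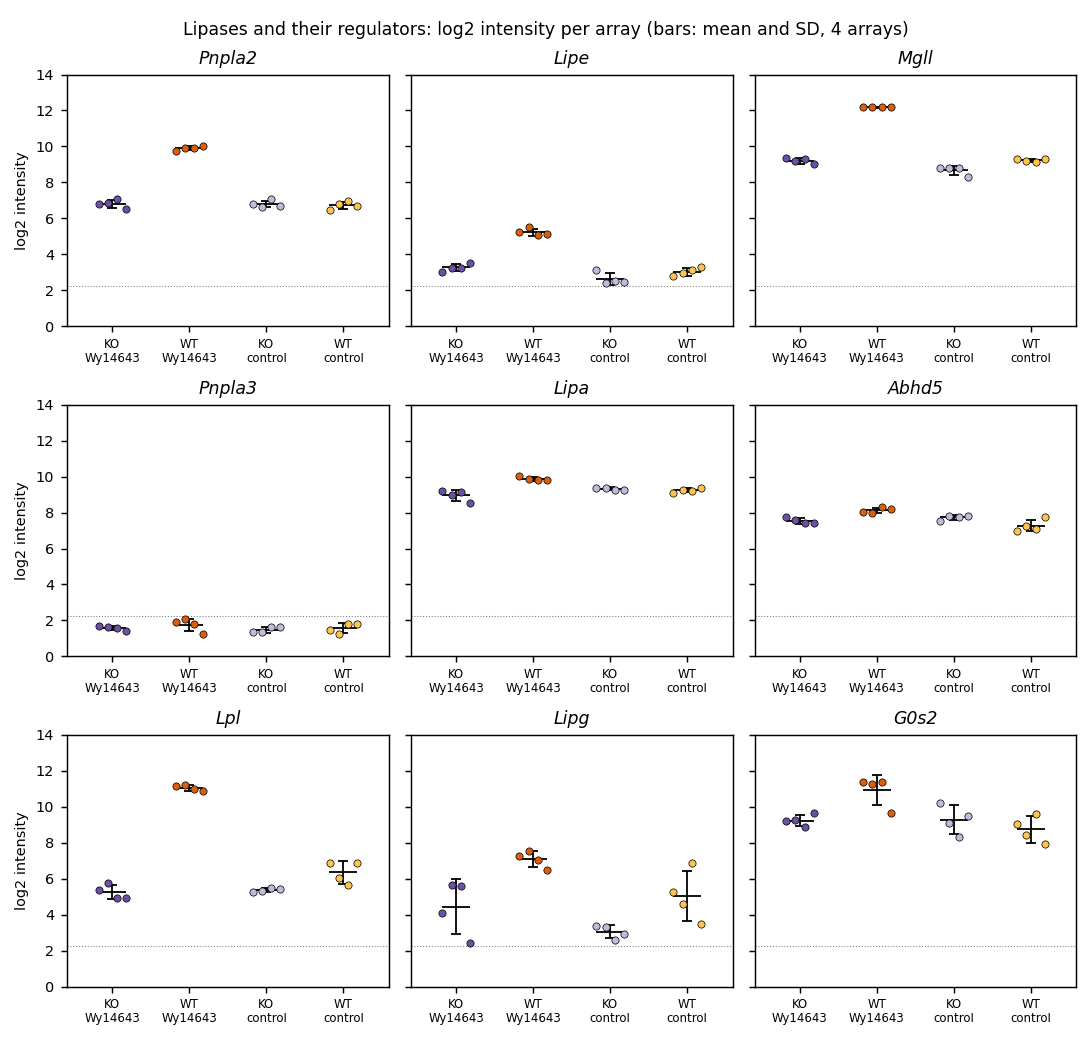
Log2 intensity (y axis) of the brightest probe set of each of the 9 measured genes on every array, by group (x axis), with bars showing mean and SD and a dotted line at the highest array median, 2.24. The wild-type Wy14643 arrays lie above the other 3 groups for Pnpla2, Lipe, Mgll, Lipa, Lpl and Abhd5, while Pnpla3 lies below the dotted line throughout.

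Pnpla2, the enzyme of the first step, had levels of 6.82, 6.84, 7.07 and 6.53 in PPARα-null mice on Wy14643, 9.74, 9.94, 9.90 and 10.01 in wild-type mice on Wy14643, 6.82, 6.64, 7.06 and 6.69 in PPARα-null mice on control food and 6.47, 6.79, 6.95 and 6.66 in wild-type mice on control food. The 4 wild-type arrays on Wy14643 were far above the other 12, whose 3 groups overlapped one another. Group means were 6.81 ± 0.22, 9.90 ± 0.12, 6.80 ± 0.19 and 6.72 ± 0.20 in the same order. The wild-type response was 3.18 ± 0.13 (9.05-fold, adjusted p = 6.45e-12). The response of PPARα-null mice was 0.01, with a 95% interval of -0.26 to 0.29, and the genotypes on control food differed by 0.08 (-0.19 to 0.35).

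Lipe, which acts on diglyceride, was low. It had levels of 3.03, 3.25, 3.25 and 3.53 in PPARα-null mice on Wy14643, 5.23, 5.50, 5.07 and 5.11 in wild-type mice on Wy14643, 3.12, 2.40, 2.51 and 2.45 in PPARα-null mice on control food and 2.77, 2.94, 3.12 and 3.28 in wild-type mice on control food. The wild-type Wy14643 arrays were above all others, and 3 of the 4 PPARα-null control arrays were the lowest of the 16, close to the dim level of 2.24. Wild-type mice responded by 2.2 ± 0.16 (4.6-fold, adjusted p = 1.40e-08). In PPARα-null mice the difference was 0.64 ± 0.16 with adjusted p = 0.165, and 1 control array lay within the Wy14643 range. Values this close to the dim level depend on the background correction, and with 16 added to the intensities before log2 the wild-type response of Lipe was 1.15, still called (adjusted p = 1.66e-08).

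Mgll, which releases the last fatty acid from glycerol, was tightly spread between mice. Its levels were 9.33, 9.16, 9.28 and 9.0 in PPARα-null mice on Wy14643, 12.17, 12.21, 12.22 and 12.17 in wild-type mice on Wy14643, 8.78, 8.78, 8.78 and 8.31 in PPARα-null mice on control food and 9.32, 9.19, 9.12 and 9.29 in wild-type mice on control food. Here the other 3 groups did not fall together, since the 4 PPARα-null control arrays were below those of both other groups without overlap. In wild-type mice the response was 2.96 ± 0.11 (7.79-fold, adjusted p = 1.70e-12). The response in PPARα-null mice was 0.53 ± 0.11, 1.44-fold, with adjusted p = 0.0911. The genotypes on control food differed by -0.57 ± 0.11 with adjusted p = 0.0176, short of the threshold of 0.01. Of all probe sets, 5.38% had no overlap in the PPARα-null response, where Mgll and Lipa were the 2 such members.

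Pnpla3, a droplet protein related to Pnpla2 that is best known from human fatty liver genetics, was dim on every array. Its group means were 1.57 ± 0.10 in PPARα-null mice on Wy14643, 1.75 ± 0.34 in wild-type mice on Wy14643, 1.49 ± 0.17 in PPARα-null mice on control food and 1.58 ± 0.26 in wild-type mice on control food. All 4 lay below 2.24, so that no fold is given. A fall or a small change in this gene was not detectable on these arrays, and no array had a level above 2.24.

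Lipa, the lysosomal lipase, had levels of 9.18, 9.0, 9.12 and 8.51 in PPARα-null mice on Wy14643, 10.03, 9.86, 9.80 and 9.84 in wild-type mice on Wy14643, 9.38, 9.39, 9.23 and 9.25 in PPARα-null mice on control food and 9.11, 9.28, 9.21 and 9.36 in wild-type mice on control food. The 2 control groups overlapped, the wild-type Wy14643 arrays were above them, and the PPARα-null Wy14643 arrays were below those of PPARα-null controls. Wild-type mice responded by 0.64 ± 0.12 (1.56-fold, adjusted p = 8.73e-04), the smallest of the 7 called and just over the fold of 1.5. The PPARα-null difference was -0.36 ± 0.12 with adjusted p = 0.350. The response in PPARα-null mice minus that in wild-type mice was -0.999 ± 0.17 (adjusted p = 6.53e-04). The lowest value, 8.51, belonged to the PPARα-null array that stood apart. Without it the PPARα-null difference was -0.21 (adjusted p = 0.683) and the difference of the responses -0.85 (adjusted p = 2.00e-04).

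**Figure D2:**
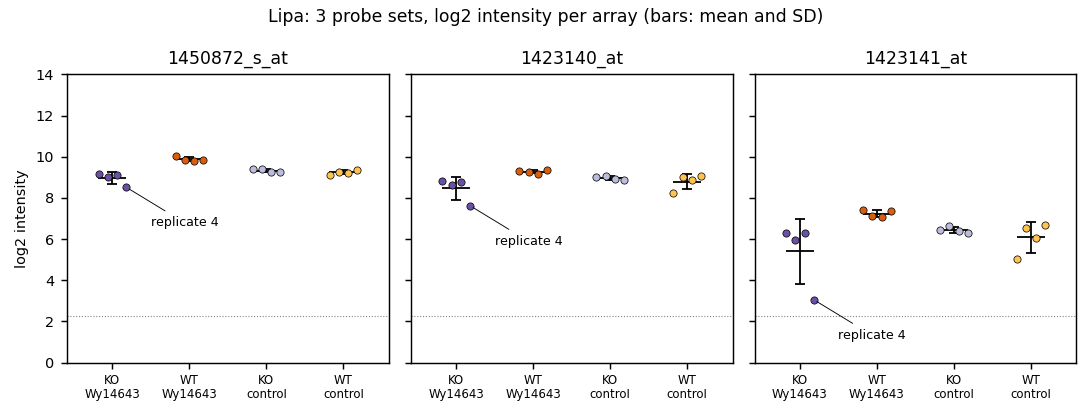
Log2 intensity (y axis) of the 3 probe sets of Lipa on every array by group (x axis), with bars showing mean and SD and PPARα-null replicate 4 on Wy14643 marked. The marked array had 8.51, 7.62 and 3.05, the lowest value of each probe set.

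The other 2 probe sets of Lipa had the wild-type Wy14643 mean highest and the PPARα-null Wy14643 mean lowest too, with wider spread. On the second the PPARα-null Wy14643 arrays gave 8.82, 8.62, 8.78 and 7.62 and the wild-type Wy14643 arrays 9.30, 9.27, 9.17 and 9.36. On the third these groups gave 6.30, 5.97, 6.29 and 3.05, and 7.42, 7.11, 7.07 and 7.34. The wild-type responses of the 2 probe sets, 0.48 ± 0.22 (adjusted p = 0.139) and 1.16 ± 0.53 (adjusted p = 0.153), had no overlap between arrays but were not called.

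Lpl, which hydrolyses triglyceride of circulating lipoproteins and is low in adult liver, had the largest difference of the 9 genes. Its levels were 5.36, 5.74, 4.93 and 4.95 in PPARα-null mice on Wy14643, 11.18, 11.20, 10.98 and 10.88 in wild-type mice on Wy14643, 5.26, 5.34, 5.48 and 5.41 in PPARα-null mice on control food and 6.88, 6.03, 5.63 and 6.86 in wild-type mice on control food. The wild-type Wy14643 arrays were far above every other array, and the wild-type control arrays were above those of PPARα-null controls without overlap. Wy14643 raised Lpl by 4.71 ± 0.24 in wild-type mice (26.2-fold, adjusted p = 8.98e-11), whereas the PPARα-null response was -0.12, with a 95% interval of -0.62 to 0.37. On control food the genotypes differed by -0.98 ± 0.24 with adjusted p = 0.0818. Without wild-type control mouse 3 that difference was -1.22 and was called (adjusted p = 0.00897). The second probe set gave 5.03 ± 0.26 for the wild-type response and -0.65 for that of PPARα-null mice (adjusted p = 0.453).

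Lipg, the endothelial lipase that acts mainly on phospholipid of high-density lipoproteins, varied most between mice. It had levels of 4.07, 5.66, 5.57 and 2.42 in PPARα-null mice on Wy14643, 7.28, 7.55, 7.05 and 6.51 in wild-type mice on Wy14643, 3.38, 3.33, 2.61 and 2.91 in PPARα-null mice on control food and 5.25, 4.58, 6.85 and 3.49 in wild-type mice on control food. The PPARα-null arrays lay below those of wild-type mice on either food with no overlap on this probe set, while the arrays of the 2 foods overlapped within each genotype. The response of wild-type mice was 2.05 ± 0.65 (adjusted p = 0.0316, not called) and the PPARα-null response 1.37 ± 0.65 (adjusted p = 0.540). The difference between these responses was -0.68, with a 95% interval of -2.62 to 1.25, which spans 0 as well as the -1.56 found for Lipe. Without PPARα-null mouse 4 on Wy14643 it was -0.01. The call for wild-type mice was gained without wild-type control mouse 3 (2.66, adjusted p = 0.00424) and without PPARα-null mouse 4 on Wy14643 (adjusted p = 0.00869). On the second probe set the response was 2.58 ± 0.60 and called (adjusted p = 0.00444), although arrays of the 2 foods overlapped there too. The PPARα-null response on that probe set was 0.53 (adjusted p = 0.846), and the difference between the responses was -2.05, with a 95% interval of -3.85 to -0.24 and adjusted p = 0.151. The size of that difference for Lipg thus depended on the probe set.

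Liver RNA of whole tissue holds several cell types, and fewer cells of a type cannot be told apart from less RNA per cell. The summed intensity of 10 endothelial cell markers was 1529 to 1770 in PPARα-null mice on Wy14643, 1177 to 1267 in wild-type mice on Wy14643, 1439 to 1662 in PPARα-null mice on control food and 1521 to 1719 in wild-type mice on control food. This sum, like those of the hepatocyte, Kupffer cell and stellate cell lists, was lowest in wild-type mice on Wy14643. For 10 hepatocyte markers it was 73213.8 to 77307.9 there and 91770.5 to 95070.9 in wild-type controls. In the wild-type response 1 endothelial marker, Lyve1, rose (2.63) and 2 fell. Of 10 markers each, 3 of hepatocytes, 8 of Kupffer cells and 4 of stellate cells fell, and 0 rose. Over all probe sets 5.84% rose and 4.82% fell. The part of these shifts in the lipase values was not tested. Of the adipocyte markers, Adipoq had group means of 1.37, 1.61, 1.78 and 1.47 in the order used above, and Retn, Lep and Tshr also had means below 2.24 in every group. The fifth measured adipocyte marker, the droplet protein Cidec, went the other way, with 8.64 in wild-type mice on Wy14643 and 2.31 in wild-type controls, a called difference of 6.33. With it the summed intensity of the list was 15.5 to 19.7, 335.9 to 592.2, 15.5 to 22.4 and 16.1 to 18.9 in the same order of groups.

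Abhd5, the coactivator of Pnpla2, had levels of 7.76, 7.61, 7.41 and 7.40 in PPARα-null mice on Wy14643, 8.05, 8.0, 8.31 and 8.20 in wild-type mice on Wy14643, 7.53, 7.82, 7.75 and 7.81 in PPARα-null mice on control food and 6.99, 7.25, 7.11 and 7.73 in wild-type mice on control food. The wild-type Wy14643 arrays were the highest 4 of the 16, by a small margin, and the other groups overlapped in part. Wild-type mice responded by 0.87 ± 0.14 (1.83-fold, adjusted p = 1.71e-04), and the PPARα-null response was -0.18, with a 95% interval of -0.48 to 0.12. The second probe set gave a wild-type response of 0.20 (-0.14 to 0.54, adjusted p = 0.472), so that the call for Abhd5 rests on 1 probe set.

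G0s2, the inhibitor of Pnpla2, had levels of 9.19, 9.25, 8.87 and 9.64 in PPARα-null mice on Wy14643, 11.36, 11.28, 11.41 and 9.66 in wild-type mice on Wy14643, 10.22, 9.10, 8.31 and 9.52 in PPARα-null mice on control food and 9.05, 8.41, 9.59 and 7.92 in wild-type mice on control food. Of the wild-type Wy14643 arrays 3 were more than 1 log2 unit above all others, and replicate 4, at 9.66, was barely above the highest array of PPARα-null mice on Wy14643 and of wild-type controls. In wild-type mice the response was 2.18 ± 0.43 (4.55-fold, adjusted p = 0.00102) and the PPARα-null response -0.05, with a wide 95% interval of -0.95 to 0.85. Both the activator and the inhibitor of Pnpla2 were therefore higher in wild-type liver on Wy14643.

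**Figure D3:**
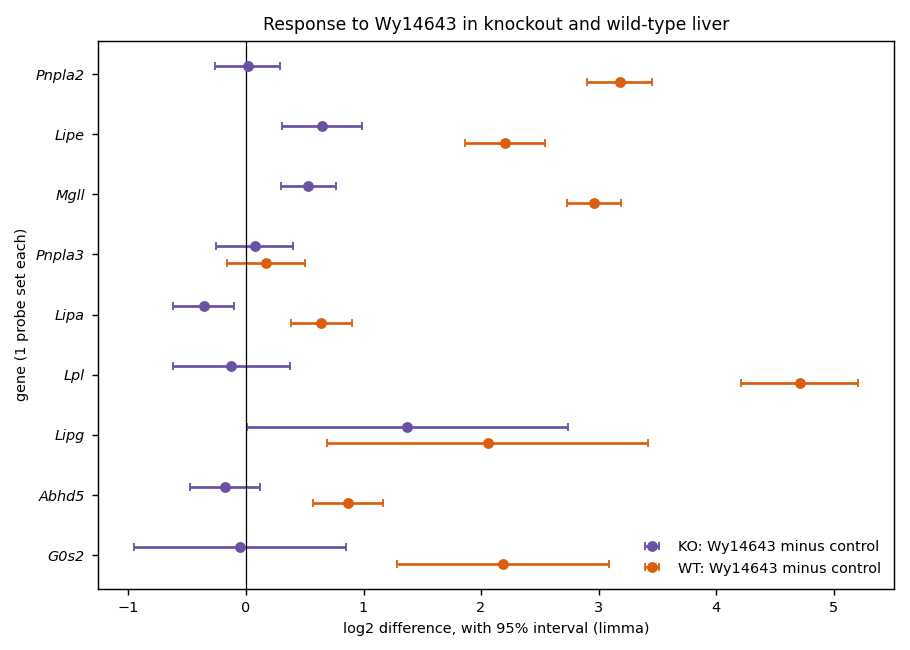
Difference between Wy14643 and control food (x axis, log2, limma estimate with 95% interval) in PPARα-null and wild-type liver for the brightest probe set of each gene (y axis). The wild-type estimates reach 4.71 for Lpl, and the PPARα-null interval, which is not adjusted for the number of probe sets, lies above 0 for Lipe, Mgll and, just, Lipg and below 0 for Lipa.

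Whether the response depended on the genotype was tested by the difference of the 2 responses. It was lower in PPARα-null mice for 6 of the 9 genes, against 7.04% of all probe sets called and 4.1% called lower. The 6 were Lpl (-4.83 ± 0.33), Pnpla2 (-3.16 ± 0.18), Mgll (-2.43 ± 0.16), Lipe (-1.56 ± 0.23), Abhd5 (-1.05 ± 0.20) and Lipa. For G0s2 it was -2.24 ± 0.60 with adjusted p = 0.0203, not called, and for Lipg it was -0.68, while Pnpla3 was too dim for a difference to be given. G0s2 was called in this comparison without wild-type mouse 4 on Wy14643 (-2.66, adjusted p = 0.00229), without PPARα-null control mouse 3 (adjusted p = 0.00744) and without wild-type control mouse 3 (adjusted p = 0.00993).

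Under Wy14643, 8 of the 9 genes were lower in PPARα-null than in wild-type liver, with no overlap between arrays, and Pnpla3 was the exception. Of all probe sets 11.1% were called, 6.17% lower, and 10.7% were lower without overlap. The median difference over the 9 genes was -1.96, and 0.04 over all probe sets. The differences ran from -5.81 ± 0.24 for Lpl over -3.08 ± 0.13 for Pnpla2, -3.00 ± 0.11 for Mgll, -2.67 ± 0.65 for Lipg, -1.96 ± 0.16 for Lipe, -1.69 ± 0.43 for G0s2 and -0.93 ± 0.12 for Lipa to -0.59 ± 0.14 for Abhd5. This comparison shares the wild-type Wy14643 arrays with the wild-type response. The calls of Lipg, G0s2 and Abhd5 (adjusted p = 0.00567, 0.00763 and 0.00473) were each lost when single arrays were left out. Lipg lost its call without PPARα-null mouse 1 or 4 or wild-type mouse 1, 2 or 3 on Wy14643, with differences of -2.0 to -2.68 and adjusted p = 0.0133 to 0.0197. Abhd5 lost it without PPARα-null mouse 3 or 4 or wild-type mouse 3 or 4 on Wy14643 (-0.54 to -0.57, adjusted p = 0.0145 to 0.0187). G0s2 lost it without PPARα-null mouse 1, 2 or 3 or wild-type mouse 1, 2 or 3 on Wy14643, or PPARα-null mouse 2 or 4 on control food (-1.53 to -1.69, adjusted p = 0.0104 to 0.0279).

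On control food 0 of the 9 genes were called between PPARα-null and wild-type liver, with 5 at an unadjusted p under 0.05, while 0.353% of all probe sets were called. Lipg, Lpl and Mgll were lower in PPARα-null mice with no overlap between the arrays of the genotypes, with differences of -1.99 ± 0.65 (adjusted p = 0.310), -0.98 and -0.57. On the second probe sets the arrays of the genotypes overlapped for Lipg (-0.84) and Lpl (-0.73) and not for Mgll (-0.35). Of all probe sets 3.24% were lower without overlap. Abhd5 pointed the other way, at 0.46 ± 0.14 (adjusted p = 0.262).

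Intracellular and secreted lipases were set side by side. Of the 5 intracellular enzymes Pnpla2, Lipe, Mgll, Pnpla3 and Lipa, 4 rose in wild-type liver on Wy14643, with a median of 2.2 over the 5. Of the 2 secreted enzymes measured, Lpl rose and Lipg was not called, with a median of 3.38. Under Wy14643 the PPARα-null level was lower for 4 of 5 intracellular enzymes (median -1.96) and for both secreted enzymes (median -4.24). On control food the medians were -0.09 for the intracellular and -1.48 for the secreted enzymes. The intracellular median there was the fitted value of Pnpla3, which was dim in every group. The other intracellular enzymes ran from -0.57 for Mgll to 0.08 for Pnpla2. On the brightest probe sets the genotypes did not overlap for 2 of the 2 secreted and 1 of the 5 intracellular enzymes. The 2 regulators rose with a median of 1.53. With 2 secreted genes measured, these are descriptions of single genes, and no difference between the classes was tested.

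**Figure D4:**
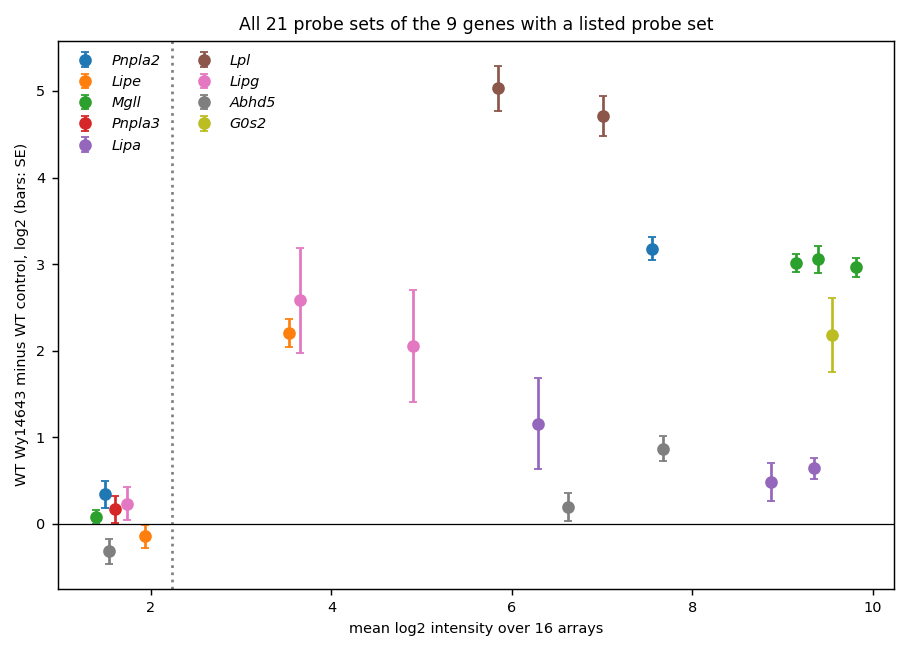
Wild-type response to Wy14643 (y axis, log2, bars for the SE) against the mean log2 intensity over 16 arrays (x axis) for all 21 probe sets, coloured by gene, with a dotted line at the highest array median. The 6 probe sets left of the line lie between -0.32 and 0.34, and the pair of Abhd5 probe sets right of it lie at 0.87 and 0.20.

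The bright probe sets of a gene gave like wild-type responses for Mgll and Lpl but not for Abhd5. The 3 bright probe sets of Mgll had wild-type responses of 2.96, 3.05 and 3.02 and the 2 of Lpl 4.71 and 5.03. The fourth Mgll probe set, the second ones of Pnpla2 and Lipe and the third ones of Lipg and Abhd5 had all 4 group means below 2.24 and hence carried no level. In PPARα-null mice the Mgll probe sets gave 0.53, 0.18 and 0.57, none of them called.

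The genes around these enzymes were taken as 3 lists of other neutral lipid hydrolases, droplet proteins with intracellular lipase regulators, and maturation and plasma regulators of secreted lipases. Of 23 measured other hydrolases, 6 rose and 1 fell in wild-type liver on Wy14643, and their median was 0.08. Over all probe sets 5.84% rose and 4.82% fell, with a median of -0.03, and the same background holds for the other lists. The 4 with the largest change were Pnliprp1, a pancreatic lipase relative (at least 2.71), Nceh1, a cholesteryl ester hydrolase (2.81), Abhd6, a monoglyceride hydrolase (2.59), and Ddhd2, a phospholipase and triglyceride hydrolase (2.29). Abhd6 had 7.28, 6.97, 7.14 and 7.34 in PPARα-null and 9.96, 10.12, 10.08 and 10.11 in wild-type mice on Wy14643. Like Mgll it was higher in wild-type liver on the agonist, whereas Abhd12 of the same list had a wild-type response of 0.07, not called. Pnliprp1 is known from the exocrine pancreas, and its highest level, 6.72, was in the array with acinar transcripts, against 3.94, 4.88 and 4.25 in the other wild-type mice on Wy14643. Without that array its response was at least 2.12 (adjusted p = 2.54e-07) and the counts of this list stayed 6 and 1.

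Of 13 measured droplet proteins and intracellular regulators, 7 rose and 1 fell, with a median of 1.0. Fabp4, a fatty acid binding protein that binds hormone-sensitive lipase in adipocytes, rose by 6.55, and the droplet proteins Cidec and Cidea, which enlarge droplets, by 6.33 and at least 5.15. Plin5, which binds Abhd5 and Pnpla2 on the droplet, rose by 2.37. The exception was Cideb, at -0.64. The catalytic and regulatory subunits of protein kinase A on the list, which governs hormone-sensitive lipase, were not called. In PPARα-null mice 0 of the 13 were called, 2 having an unadjusted p under 0.05.

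Of 17 measured maturation and plasma regulators of secreted lipases, 2 rose and 4 fell, with a median of -0.20. Angptl4, an inhibitor of lipoprotein lipase, rose by 2.06, and Angptl8, a secreted protein of the same family, fell by 3.79. Apoa4 fell by 3.61 and Calr, a chaperone of the endoplasmic reticulum, fell by 1.06. Apoc3, an inhibitor of triglyceride clearance, fell by 0.85. Apoc2 and Apoa5 had differences of -0.54 and -0.53, neither called, and Pcsk5 rose by 0.86. The lipase maturation factor Lmf1 had a difference of -0.38 and the endothelial anchor Gpihbp1 one of 0.00, neither called. These lists had 0 calls in PPARα-null mice on Wy14643, where 7 of the hydrolases, 2 of the droplet proteins and 2 of the plasma regulators had an unadjusted p under 0.05. No share of all probe sets at that unadjusted p was counted to set beside them.

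**Figure D5:**
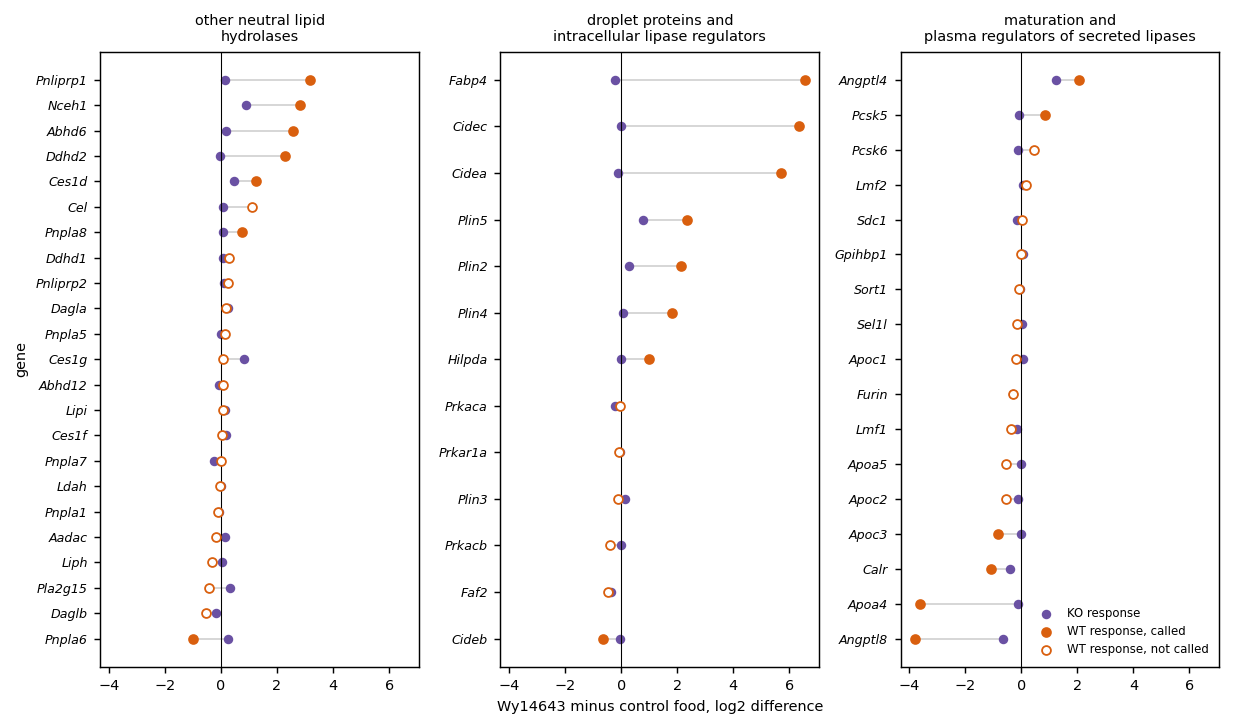
Fitted difference between Wy14643 and control food (x axis, log2) for each measured gene (y axis) of the 3 lists, with the PPARα-null response as a violet point and the wild-type response as an orange point, the orange points filled where called. Wild-type points run from 6.55 for Fabp4 to -3.79 for Angptl8, and no PPARα-null response was called.

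The genes whose 4 group means were most like those of each called member were sought among 5696 genes, each pattern centred on its own mean. Pnpla2 was closest to Tmem184a and Unc119, with root mean square differences of 0.0606 and 0.0607 log2 units over the 4 groups. Mgll was closest to Igsf11 (0.0657) and Lipe to Fbxo31 (0.0956), and like these members Igsf11 and Fbxo31 had their lowest mean in PPARα-null controls. For Lpl no likeness is given, since the nearest genes, Chrna2 and the droplet protein Fitm1, had means at or below 2.24 in 3 and 2 of the 4 groups. Lipa was closest to Amotl2 (0.0263), Abhd5 to Wrnip1 (0.0346) and G0s2 to Lgals1 (0.0214). With 4 means per gene such a likeness is a description only.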

How the data were processed

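Liver RNA of 16 mice was measured on 16 one-colour arrays. The authors deposited an intensity for each probe set, and the submitters' processing notes name GCRMA 2.20, a method that corrects the background by probe sequence and normalizes quantiles between arrays. The deposited values were linear (array medians 4.42 to 4.72), and log2 was taken with no offset. The normalization hides shifts common to the majority of genes, and low intensities follow the background correction. The number of arrays limits the precision. Of 45101 probe sets, 64 controls were left out. A single gene was listed for 34945 probe sets, more than 1 for 932, and 9160 had no gene listed. Where a gene had several, the probe set with the highest mean over the 16 arrays represented it. limma 3.58.1 in R 4.3.3 was fitted with 1 mean per group and moderated variances over all 16 arrays. P-values were two-sided and adjusted by Benjamini-Hochberg over 45037 probe sets. The replicates are separate mice. The fit was tested on simulated data. Differences against a group mean at or below the highest array median (2.24) are given as bounds. The fitted values of probe sets dim in every group enter only plots, alternatives and medians over several genes. The members and gene lists were chosen with earlier results of these data known. Genes other than members were named by rule, up to 4 called genes per list with the largest wild-type response and the 2 nearest patterns per called member. Beyond these, Apoc2, Apoc3, Apoa5, Pcsk5, Cideb, Lmf1, Gpihbp1, Plin2, Abhd12 and Lyve1 were picked after their values were seen. Promoter windows came from RefSeq. The 12 alternatives covered filters, normalization, offset, weights, moderation, samples, block, thresholds, probe set and leaving out single arrays.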

Additional observations from a re-analysis of the deposited data

Results flagged for a closer look

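In 36 groups of 4 arrays, 3 held an array far from the other 3, where chance alone marks about 1 in 20. In PPARα-null controls Lipe was 3.12 in replicate 1, against 2.40 to 2.51 in the other 3 mice, and Mgll was 8.31 in replicate 4, against 8.78 in each of the other 3. In wild-type mice on Wy14643 G0s2 was 9.66 in replicate 4, against 11.28 to 11.41 in the others.

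The response to Wy14643 differed between PPARα-null and wild-type mice by the test of the difference itself for 6 genes. PPARα-null response minus wild-type response was -4.83 for Lpl, -3.16 for Pnpla2, -2.43 for Mgll, -1.56 for Lipe, -1.05 for Abhd5 and -0.999 for Lipa.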

How the results depend on the processing

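The counts of genes called were 7 of 9 in the wild-type response, 0 in the PPARα-null response, 8 between the genotypes on Wy14643, 0 on control food and 6 in the interaction. With the replicate number as a block they were again 7, 0, 8, 0 and 6. For 12877 probe sets the mean of each group was subtracted, and the remaining deviations were correlated between arrays. The deviations of arrays of the same number in different groups correlated at -0.12 to 0.19 in 24 pairs, 6 of them over 0.1. Those of arrays of different number correlated at -0.28 to 0.20. Between the genotypes the same-number pairs gave 0.07 to 0.17 on Wy14643 and 0.01 to 0.16 on control food. Whether the numbers pair the mice cannot be settled from these ranges. The next highest probe set was available for 7 genes and was dim in every group for Pnpla2 and Lipe. With it the counts were 3 in the wild-type response, 3 between the genotypes on Wy14643 and 2 in the interaction. Lipa and Abhd5 lost the wild-type call on probe sets that were not dim (limma adjusted p = 0.139 and 0.472). A test against a fold of 1.5 at adjusted p under 0.05 gave 5 in the wild-type response and 4 in the interaction, both without Lipa and Abhd5, and 4 between the genotypes on Wy14643, without these 2, Lipg and G0s2. Between the genotypes on Wy14643, leaving out single arrays gave 5 to 8, the lowest without wild-type mouse 3 on Wy14643. Without that array and PPARα-null mouse 4 on Wy14643 together, an alternative chosen after seeing the data, the count was 5. On control food it was 0 to 1 without single arrays and 1 at adjusted p under 0.05 with no minimum fold (Mgll). Directions turned for Lipe on its dim second probe set (-0.14 in the wild-type response, 0.16 between the genotypes on Wy14643, 0.21 in the interaction). They also turned for differences near 0, which were the PPARα-null response of Pnpla2 (-0.0073 with centred arrays, -0.0721 to 0.11 without single arrays) and of G0s2 (-0.38 to 0.26), Pnpla2 on control food (-0.10 on the second probe set, -0.0054 to 0.16 without single arrays) and Pnpla3, dim on every array, in the interaction (-0.26 to 0.0105). The cause was not tested. Of the values of single genes under alternatives, 1203 kept direction and side of the threshold, 44 lost the call, 11 gained it and 15 turned. The call of Abhd5 between the genotypes on Wy14643 was lost with quantile normalization (-0.56), an offset of 16 and array weights, that of G0s2 with the offset and with a trend in the moderation, and that of Lipg with that trend or with only these groups in the fit.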

Other observations

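On control food, 4 of the 53 measured genes of the 3 lists around the lipases were called, all lower in PPARα-null than in wild-type liver, against 0.353% of all probe sets called in either direction. The droplet protein Plin5 averaged 2.91 in PPARα-null and 7.69 in wild-type controls, a log2 difference of -4.78 ± 0.31 (limma adjusted p = 7.39e-08). Angptl4 averaged 4.96 and 8.09 in the same order (-3.13 ± 0.40, adjusted p = 3.12e-04). Nceh1 averaged 3.08 and 5.16 (-2.08 ± 0.19, adjusted p = 7.78e-06), and Plin2, the most widespread droplet protein, 9.60 and 10.40 (-0.80 ± 0.14, adjusted p = 0.00713). As the genotypes differ in substrain too, these differences cannot be told apart from those of the strains.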
